A study of Mus musculus with 35 samples.

Results

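The comparison was of striatal RNA from Htt+/+ mice that had received a huntingtin-lowering antisense oligonucleotide (Htt ASO, n = 6) and Htt+/+ littermates that had received saline alone (n = 6). These 12 mice were all the Htt+/+ mice labelled with either treatment, of 35 mice sequenced. All were female C57BL6/J animals with 2 unmodified Htt alleles and littermates of HttQ111/+ mice, which carry 1 Htt allele with an expanded CAG tract knocked into the endogenous locus. Weekly intraperitoneal injections (Htt ASO at 50 mg/kg; saline at 4 µL/g) began at 2 months of age. They continued to 10 months, when the mice were killed at 300 to 303 days (Htt ASO) or 301 to 303 days (saline). The remaining groups were Htt+/+ mice on an off-target control ASO with no match in the mouse genome (n = 5, 50 mg/kg) and HttQ111/+ mice on the same 3 treatments (n = 6 each). RNA came from the right hemistriatum of every mouse compared except 1 on Htt ASO, labelled as the left. Total counts per mouse ran from 34353267 to 36266000 on saline and from 32200158 to 38484693 on Htt ASO, a difference in means that was within the spread between mice (exact permutation test over 924 splits, two-sided p = 0.338). Counts of every pair of mice within a group differed by more than sampling noise (chi-square per degree of freedom 3.53 to 16.1 over 30 pairs).

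Both oligonucleotides were gapmers, with a central DNA stretch that lets RNase H cut the bound transcript and modified wings that resist nucleases. Such molecules distribute to liver, kidney and other peripheral tissues after systemic injection and pass the blood-brain barrier poorly. The comparison asks how the striatum differs after peripheral treatment with this Htt ASO in an animal without the Huntington's disease mutation. No other Htt-targeting sequence was given, so peripheral huntingtin lowering and other effects of this oligonucleotide cannot be told apart. Interferon signalling is the main inducible antiviral program of vertebrate cells: receptors on the cell surface activate STAT proteins, which with IRF9 bind the interferon-stimulated response element (ISRE) in promoters and raise genes that bind foreign nucleic acid, block viral replication or present antigen. In brain, endothelial cells of the vessel wall and microglia are among the cells that respond.

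Striatal identity of the samples was plain from their transcripts. Pde10a, the phosphodiesterase that dominates medium spiny neurons, ran from 1928 through a median of 2196 to 2315 CPM (counts scaled to library size, with TMM factors) on saline and from 2126 through 2361 to 2614 CPM on Htt ASO. Arpp21, another transcript of these neurons, lay between 1601 and 1943 CPM on saline and between 1843 and 2091 CPM on Htt ASO. Neither differed past the threshold (adjusted p = 0.403 for Pde10a, limma), and of 18 medium spiny neuron genes 0 were called. Slc17a7, the vesicular glutamate transporter of cortical neurons, ranged from 5.4 to 50.3 CPM on saline and from 5.57 to 33.1 CPM on Htt ASO, with a wide spread in both groups.

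The transcript that Htt ASO targets, listed under its older symbol Hdh, was measured first. On saline it ran from 74.5 through a median of 87.2 to 103 CPM. On Htt ASO it ran from 66.6 through 85.4 to 104 CPM. Mice of both groups covered nearly the same range. The log2 fold change, Htt ASO minus saline, was −0.08 (SE 0.09, 95% confidence interval −0.27 to 0.11, adjusted p = 0.788, limma), and an exact permutation test of log2 CPM over the 12 mice gave p = 0.468 (two-sided, the smallest possible being 0.0022). No reduction of Htt transcript was detectable in striatum at this number of mice, and 0 of 10 genes of huntingtin and its protein partners were called.

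Of 17639 genes tested, 117 rose on Htt ASO (0.663%) and 11 fell (0.0624%) at an adjusted p below 0.05. The rise was led by interferon-stimulated genes and MHC class I genes, and several further genes that rose are known from vascular endothelium. Increases were larger than decreases: log2 fold changes of the 117 ran from 0.14 to 3.75, with 38 above 1, while those of the 11 ran from −0.66 to −0.14. In 84 of the 117 every Htt ASO mouse lay above every saline mouse, as it did for 132 genes of all those tested (0.748%). In 6 of the 11 every Htt ASO mouse lay below every saline mouse, against 43 of all genes (0.244%). The 6 lists of interferon and antigen presentation genes together held 114 tested genes, of which 39 rose and 0 fell. The median log2 fold change of all tested genes was −0.0044.

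**Figure D1:**
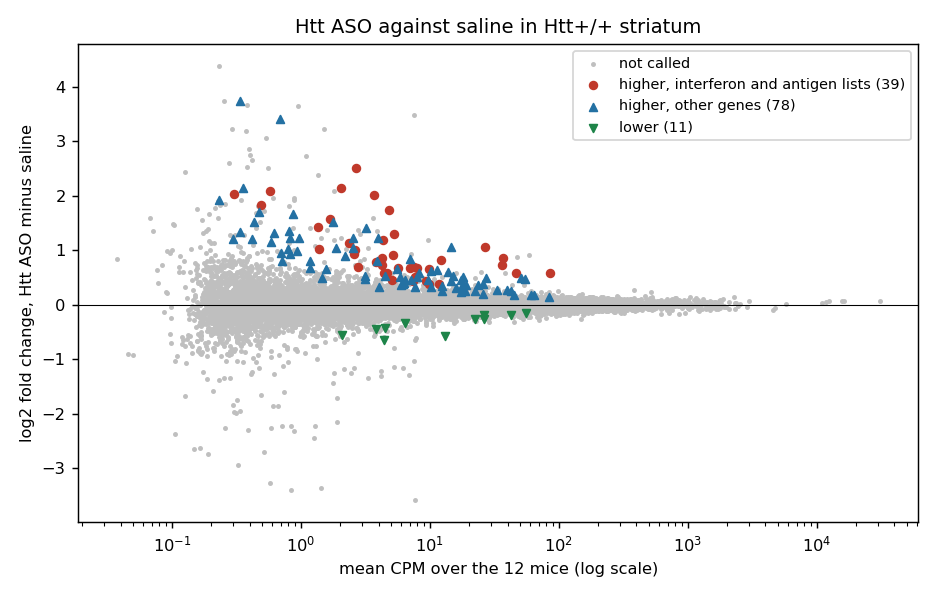
Log2 fold change, Htt ASO minus saline (vertical axis), against the mean CPM of the gene over the 12 Htt+/+ mice (horizontal axis, log scale), 1 point per gene for all 17639 tested. Circles mark the 39 called genes of the 6 interferon and antigen lists, upward triangles the other 78 genes that rose and downward triangles the 11 that fell; called genes lie almost all above zero and below 100 CPM.

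Promoter sequence was compared between these genes and the rest. The interferon and antigen lists were made from known genes of these pathways, so a high share of interferon elements among them is partly set by that choice. They were also chosen with earlier results of these data known, so the number of their members called is not independent of that choice. The RefSeq promoters used (mouse GRCm38.p6, 250 bases before to 50 bases after a transcription start) were searched for the ISRE core, spelled GAAANNGAAA or, on the other strand, TTTCNNTTTC. Overlapping matches of 1 gene were counted once. Of the 39 interferon and antigen genes that rose, 29 matched a promoter by symbol and 17 of these (58.6%) held the core. Among members of the same lists that were not called, 18 of 59 (30.5%) held it. Of the other 78 genes that rose, 53 had a promoter and 5 (9.43%) held the core, and of the 11 that fell 0 of 11 held it. The 78 are the genes outside the lists, not genes without ties to these pathways: H2-Q8 and the rows of Nlrc5, described further on, are among them. Over all tested genes with a promoter the share was 3.62% (409 of 11288), and over all 32851 promoters of the table it was 3.44%. The palindromic GAS core TTCNNNGAA, bound by STAT dimers, stood in 6 of the 29 (20.7%), in 4 of the 53 (7.55%) and in 8.13% of tested genes. A match is only a run of letters and says nothing about binding.

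The windows below are shown because they carry the ISRE core in the promoters of genes described further on. Each reads 5′ to 3′ along its gene's strand and stops before the transcription start; capitals mark every core that lies whole in the window.
Tgtp (Tgtp1, chr11:48992294-48992343, minus strand): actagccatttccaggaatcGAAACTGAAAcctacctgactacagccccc
Iigp2 (Irgm2, chr11:58214893-58214942, plus strand): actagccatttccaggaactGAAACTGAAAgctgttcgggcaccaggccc
Igtp (chr11:58199502-58199551, plus strand): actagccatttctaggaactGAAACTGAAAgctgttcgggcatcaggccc
B2m (chr2:122147528-122147577, plus strand): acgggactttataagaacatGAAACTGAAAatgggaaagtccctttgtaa
Oas1a (chr5:120907526-120907565, minus strand): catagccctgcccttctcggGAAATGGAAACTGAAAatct
Ifi203 (chr1:173942498-173942547, minus strand): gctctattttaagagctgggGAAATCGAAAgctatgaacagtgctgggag
Gbp3 (chr3:142559979-142560028, plus strand): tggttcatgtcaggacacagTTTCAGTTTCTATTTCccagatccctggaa
Ifit1 (chr19:34640765-34640814, plus strand): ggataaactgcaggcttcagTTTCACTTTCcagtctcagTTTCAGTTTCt
The first 4 hold the same 10 letters, GAAACTGAAA, which Oas1a holds as the second of its overlapping cores; Gbp3 and Ifit1 also hold a second core. The cores of the first 4 begin 77 bases (Tgtp), 64 bases (Iigp2), 34 bases (Igtp) and 139 bases (B2m) before the start. Windows of the GTPase genes Tgtp, Iigp2 and Igtp are near copies before the core, and those of Iigp2 and Igtp also after it. Their shared core is therefore not a set of independent instances.

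Oligoadenylate synthetases sense double-stranded RNA and make short oligoadenylates that trigger RNA decay. Of 9 genes of this pathway 3 rose, and the median log2 fold change of the 9 was 0.90. Oas2 had the smallest adjusted p of all genes. It lay between 0.998 and 1.83 CPM on saline (median 1.56) and between 5.29 and 7.75 CPM on Htt ASO (median 5.63). The groups were far apart, and the change was 4.03-fold (log2 fold change 2.01, SE 0.18, adjusted p = 2.55e-08). Oas1a ran from 0.583 through 0.784 to 1.30 CPM on saline and from 1.90 through 2.47 to 3.22 CPM on Htt ASO, a 2.98-fold rise (adjusted p = 2.67e-06). Its close paralogue Oas1g was scarcer (median 0.114 CPM on saline) and rose 4.10-fold (adjusted p = 0.0155), with overlapping groups. Reads that fit both genes were divided between them by the quantification, so the split is uncertain. The call of Oas1g was lost without saline mouse GV4 or HQ3 (adjusted p up to 0.0684) and in the lanes holding both treatments (0.169).

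The interferon-inducible GTPases, which disrupt the vacuoles of intracellular pathogens, were the list with the greatest share of members called: 10 of 12 rose, with a median log2 fold change of 0.71. Tgtp, the T-cell specific GTPase whose near-identical gene pair cannot be separated by short reads, ran from 2.32 through 3.08 to 3.72 CPM on saline and from 5.83 through 7.75 to 9.67 CPM on Htt ASO. It rose 2.47-fold (log2 fold change 1.31, SE 0.13, adjusted p = 2.89e-08). Gvin1, a very large member, lay between 12.3 and 19.4 CPM on saline and between 27.4 and 43.0 CPM on Htt ASO, a 2.08-fold rise (adjusted p = 5.58e-08). All mice on Htt ASO were above all on saline for both genes. Gbp4, a guanylate-binding protein, rose 2.28-fold from a median of 2.5 to 5.64 CPM (adjusted p = 5.74e-05). Ifi47 rose 2.04-fold from 0.928 to 1.84 CPM (adjusted p = 0.000317) and Iigp2 rose 1.61-fold from 5.83 to 9.05 CPM (adjusted p = 8.86e-06). Igtp and Gbp3, named after their values were seen and with promoters printed above, rose 1.65-fold (adjusted p = 0.000889) and 1.60-fold (adjusted p = 0.0017). Gbp3 missed the threshold when only the groups compared were fitted (adjusted p = 0.0577), and Igtp missed it in the lanes holding both treatments (0.178).

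Among other interferon effectors 16 of 38 rose and 0 fell, all 38 had a log2 fold change above 0, and the median was 0.47. Slfn5, a Schlafen family member, ran from 6.56 through 8.98 to 10.1 CPM on saline and from 14.6 through 15.3 to 17 CPM on Htt ASO (1.78-fold, adjusted p = 1.19e-06). Ly6a, the surface protein Sca-1 that is abundant in vessel walls, ran from 24.8 through 25.9 to 27.9 CPM on saline and from 45.5 through 47.2 to 51.0 CPM on Htt ASO (1.82-fold, adjusted p = 2.4e-06). Neither gene's groups touched. Parp14, an ADP-ribosyltransferase, rose 1.61-fold (adjusted p = 0.00126) with overlapping groups, and Slfn2 rose 1.62-fold (adjusted p = 0.00129). 2310016F22Rik, now Apol9b, was scarce at a median of 0.222 CPM on saline and rose 4.23-fold to 0.943 CPM (adjusted p = 0.000347). Ifit1 and Isg15 are named after their values were seen. Ifit1, which binds RNA lacking host cap marks, had a median of 3.21 CPM on saline and 5.90 CPM on Htt ASO and rose 1.88-fold (adjusted p = 0.0243). Its call was lost on leaving out GT3 or GW4 of the Htt ASO mice or HE3, HM3, HQ3 or HT4 of the saline mice (adjusted p up to 0.083). It was also lost with fewer groups fitted (up to 0.172). Isg15 was not called, at medians of 1.09 and 1.67 CPM (adjusted p = 0.391).

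MHC class I molecules display peptides of the cell's own proteins to cytotoxic T cells. Of 20 class I and antigen processing genes 5 rose and 0 fell (median log2 fold change 0.23). H2-K1, a classical heavy chain, ran from 24.1 through 27.0 to 30.1 CPM on saline and from 38.8 through 45.7 to 51.8 CPM on Htt ASO. Its 1.67-fold rise (log2 fold change 0.74, SE 0.07, adjusted p = 2.89e-08) left a wide gap between the groups. B2m, the light chain shared by all class I molecules, ran from 57.8 through 66.5 to 88.7 CPM on saline and from 90.5 through 98.3 to 116 CPM on Htt ASO, a 1.5-fold rise (adjusted p = 2.67e-06). H2-D1, the other classical heavy chain, rose 1.5-fold (adjusted p = 4.57e-05), and its groups overlapped at 47.7 CPM in the highest saline mouse and 45.6 CPM in the lowest Htt ASO mouse. The Qa-region genes changed more: H2-Q6 rose 5.73-fold from a median of 0.737 to 4.55 CPM (adjusted p = 8.34e-06), H2-Q7 rose 4.43-fold from 0.770 to 3.48 CPM (adjusted p = 4.5e-07) and H2-Q8 rose 2.87-fold from 0.959 to 2.61 CPM (adjusted p = 4.5e-07). These genes are close copies of one another, so how reads were divided among them is uncertain. Nlrc5, the activator of class I transcription, was split over 2 rows of the table under older names, named here after their values were seen, and both rose (AK220210, 2.57-fold, adjusted p = 0.000898; AI451557, 1.91-fold, adjusted p = 0.0309). The second was lost on leaving out any of 8 single mice, GT3, GW4, HA3 and HA4 on Htt ASO and GV4, HE3, HM3 and HQ3 on saline (adjusted p up to 0.105). Lane as a covariate and fits on fewer groups or lanes also ended its call (up to 0.347). Also named afterwards, the transporter Tap1 (adjusted p = 0.0734) and the immunoproteasome subunit Psmb8 (adjusted p = 0.309) were not called, but Tap1 passed with DESeq2, with lane as a covariate, with GC correction and without HD3 (adjusted p as low as 0.00529). Of 6 MHC class II genes 0 were called.

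**Figure D2:**
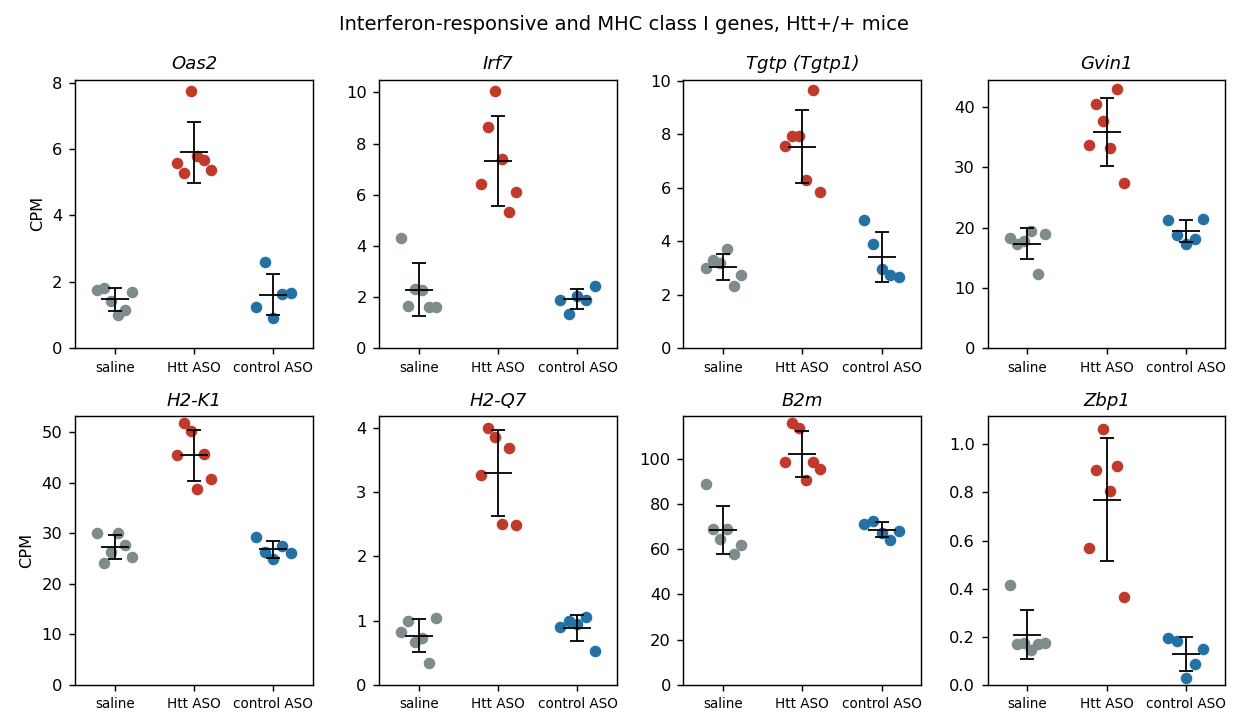
CPM (vertical axis, from 0) of 8 interferon-responsive and MHC class I genes in each Htt+/+ mouse on saline (n = 6), Htt ASO (n = 6) and control ASO (n = 5); the bar and whiskers are mean ± SD. Points of Htt ASO lie above both other groups for each gene except Zbp1, where 1 Htt ASO mouse at 0.365 CPM lies below the highest saline mouse at 0.417 CPM.

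Of 18 STAT, IRF and interferon receptor genes only Irf7, the transcription factor that amplifies type I interferon production, was called. It ran from 1.60 through 1.96 to 4.29 CPM on saline and from 5.33 through 6.91 to 10.1 CPM on Htt ASO, a 3.35-fold rise (log2 fold change 1.74, SE 0.20, adjusted p = 1.03e-06). The receptor Ifnar1, named like the Toll-like receptors after its values were seen, had a median of 42.4 CPM on saline and 43.2 CPM on Htt ASO (adjusted p = 0.704). The median log2 fold change of the 18 was 0.052. Of 17 nucleic acid sensors 4 rose. Ifi203, an AIM2-like DNA sensor, rose 1.82-fold from a median of 2.93 to 5.42 CPM (adjusted p = 2.67e-06). Ifih1 (MDA5), a sensor of long double-stranded RNA, rose 1.5-fold from 3.72 to 5.62 CPM (adjusted p = 0.00123), and Ddx58 (RIG-I) rose 1.36-fold from 6.11 to 8.35 CPM (adjusted p = 0.0183). Zbp1, which binds Z-form nucleic acid, rose 3.58-fold from 0.171 to 0.851 CPM (adjusted p = 0.00129). The call of Ddx58 was lost without GT3, GW4 or HT4 (adjusted p up to 0.0811) and with fewer groups or lanes fitted (up to 0.151). The Toll-like receptors for RNA and CpG DNA did not pass the test: Tlr3 (log2 fold change 0.10, adjusted p = 0.582), Tlr7 (medians of 7.02 and 7.14 CPM) and Tlr9 (0.11, adjusted p = 0.831). Of 11 chemokine genes only 6 passed the filter on low counts, and 0 of these were called.

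Some genes of the vessel wall changed as well. From a list of 12 endothelial markers Ly6c1 and Cdh5 rose and Tek fell, with a median log2 fold change of 0.18; in bulk tissue a change in the number of cells of a type and a change in RNA per cell cannot be told apart. Ly6c1, a surface protein of brain endothelium, ran from 38.4 through 42.9 to 45.6 CPM on saline and from 56.3 through 59.0 to 66.1 CPM on Htt ASO (1.4-fold, adjusted p = 0.000247). Cdh5, the VE-cadherin of endothelial junctions, rose 1.27-fold from a median of 15.2 to 19.0 CPM (adjusted p = 0.0129), and missed the threshold in Htt+/+ mice fitted alone (adjusted p = 0.103). Other defining markers were not called: Flt1 had medians of 76.7 and 77.8 CPM (adjusted p = 0.909), Slc2a1 of 172 and 169 CPM (adjusted p = 0.994), and Cldn5, a tight junction protein, of 19.3 and 21.6 CPM (adjusted p = 0.666). Pecam1 and Vwf, named like Cldn5 after their values were seen, were each higher in every Htt ASO mouse than in any saline mouse but missed the threshold (adjusted p = 0.379 and 0.159). Vwf passed when only the groups compared were fitted (adjusted p = 0.00171) and also in the lanes holding both treatments.

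Among 9 endothelial activation and acute phase genes 2 rose. Icam1, the adhesion molecule on which leukocytes arrest, ran from 1.59 through 2.30 to 3.41 CPM on saline and from 4.37 through 5.59 to 6.04 CPM on Htt ASO, a 2.34-fold rise (log2 fold change 1.23, SE 0.15, adjusted p = 4.21e-06). Lcn2, the iron-siderophore binding lipocalin, was at 0 to 0.264 CPM on saline and 0.444 to 2.89 CPM on Htt ASO and rose 10.6-fold with a wide error (log2 fold change 3.41, SE 0.72, adjusted p = 0.00863). The call of Lcn2 was lost with lane as a covariate, in Htt+/+ mice fitted alone and in the lanes holding both treatments (adjusted p up to 0.281). Vcam1, named after its values were seen, was not called (log2 fold change 0.20, adjusted p = 0.23).

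Of the 117 genes that rose, 71 were in no list. Several, named here after their values were seen, are known from endothelium. Cd93, a lectin-like receptor of endothelial cells, ran from 7.09 through 9.46 to 11.6 CPM on saline and from 18.5 through 19.3 to 21.4 CPM on Htt ASO (2.09-fold, adjusted p = 1.08e-05). Angpt2, the angiopoietin that antagonises the Tek (TIE2) receptor, ran from 1.07 through 1.71 to 2.61 CPM on saline and from 3.77 through 4.21 to 6.04 CPM on Htt ASO (2.65-fold, adjusted p = 0.000439). The groups did not overlap for either. Tek itself fell, from 14.2 through 15.5 to 17.7 CPM on saline to 9.19 through 10.2 to 12.5 CPM on Htt ASO (0.668-fold, log2 fold change −0.58, SE 0.11, adjusted p = 0.00164), while Tie1, the sister receptor, rose 1.35-fold from a median of 12.7 to 16.2 CPM (adjusted p = 0.00157). Thbd, the thrombin-binding anticoagulant thrombomodulin, rose 1.55-fold from 8.67 to 13.9 CPM (adjusted p = 0.000439). The mucin Emcn rose 1.5-fold from 6.73 to 10.2 CPM (adjusted p = 0.000152), Cd34 1.41-fold from 22.8 to 31.7 CPM (adjusted p = 0.000439), Itm2a 1.38-fold from 45.6 to 62.9 CPM (adjusted p = 6.18e-05) and the glutamine transporter Slc38a5 2.34-fold from 1.49 to 3.48 CPM (adjusted p = 0.00161). Every Htt ASO mouse lay above every saline mouse for these 4 genes.

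**Figure D3:**
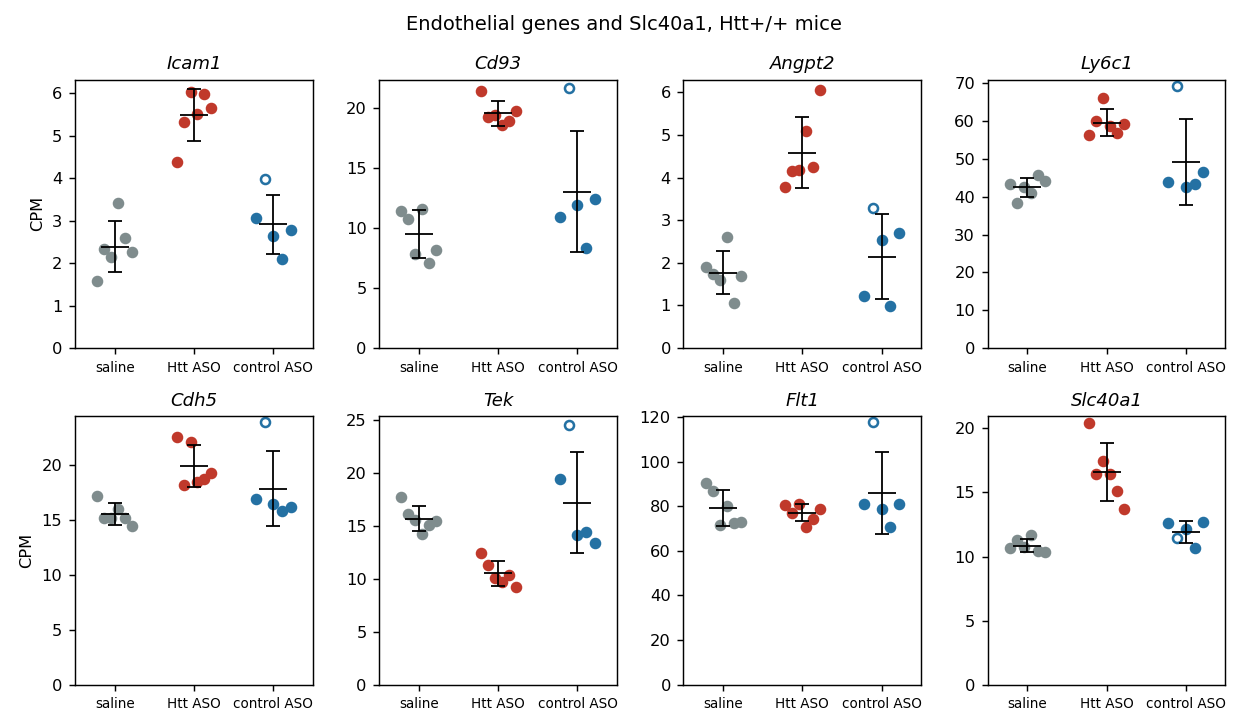
CPM (vertical axis, from 0) of 7 endothelial genes and the iron exporter Slc40a1 in each Htt+/+ mouse, with mean ± SD. The open circle is control ASO mouse GV3, which stands above the other 4 control ASO mice for Cd93, Ly6c1, Cdh5, Tek and Flt1; Tek is lower in all 6 Htt ASO mice than in any saline mouse.

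Slc40a1 (ferroportin), the cell's iron exporter, ran from 10.3 through 10.7 to 11.7 CPM on saline and from 13.7 through 16.4 to 20.4 CPM on Htt ASO (1.51-fold, log2 fold change 0.60, SE 0.07, adjusted p = 1.28e-06), with no overlap. Named after their values were seen, the serine protease inhibitor Serpina3g rose 13.5-fold from a median of 0.0522 to 0.643 CPM (adjusted p = 2.67e-06), Serpinb6b 1.85-fold from 1.67 to 2.89 CPM (adjusted p = 1.55e-05), the galectin Lgals9 1.59-fold from 4.24 to 6.75 CPM (adjusted p = 2.24e-05) and the common cytokine receptor chain Il2rg 2.05-fold from 1.28 to 2.58 CPM (adjusted p = 0.000439). The fold of Serpina3g rests on a saline level at or near 0 in every mouse (0 to 0.0871 CPM). Among complement genes Cfb, a protease of the alternative pathway, rose 3.24-fold from 0.215 to 0.783 CPM (adjusted p = 0.00593).

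The 11 genes that fell shared no list beyond the single endothelial marker Tek. Megf6, an EGF-repeat protein, had the largest decrease, from 4.65 through 5.37 to 6.51 CPM on saline to 3.09 through 3.45 to 3.77 CPM on Htt ASO (0.635-fold, adjusted p = 0.00129), without overlap. Ptprm, a receptor tyrosine phosphatase of cell contacts, fell from a median of 45.5 to 40.3 CPM (0.876-fold, adjusted p = 0.00332). Ssh3, a cofilin phosphatase, fell from 28.3 to 23.8 CPM (0.832-fold, adjusted p = 0.00318). Both of these missed the threshold when only the groups compared were fitted and in the lanes holding both treatments, Ssh3 also in Htt+/+ mice fitted alone (adjusted p up to 0.523 for Ptprm and 0.636 for Ssh3), and Megf6 missed it in those lanes (adjusted p = 0.104). The other 8 comprised Tek and Zfp692 (0.874-fold), Abcc4 (0.834-fold), Mamdc4 (0.684-fold), Clk3 (0.905-fold), 4932409I22Rik (0.790-fold), Hmcn1 (0.739-fold) and Fam83d (0.748-fold), whose adjusted p, Tek aside, ran from 0.0126 for Zfp692 to 0.048 for Fam83d. Leaving out 1 mouse at a time ended the call of these 7. For Zfp692 those mice were GT3 and HD3 (adjusted p up to 0.0557), for Mamdc4 GT3, HA4, HE3 and HT4 (up to 0.113), and for Abcc4 GS4, GT3, GV4, HA4, HD3, HE3 and HM3 (up to 0.0856). For Fam83d they were GS4, GT3, HA4, HE3, HM3, HQ3 and HT4 (up to 0.234), for Hmcn1 GS4, GT3, HA3, HA4, HD3, HE3, HM3 and HN3 (up to 0.169), and for Clk3 GS4, GT3, GV4, HA3, HA4, HN3, HQ3 and HT4 (up to 0.163). 4932409I22Rik lost its call without any mouse except HQ3 or HT4 (up to 0.183). All 7 also lost it in the lanes holding both treatments. Over all settings of the fit adjusted p reached 0.816 for Clk3, 0.706 for Fam83d, 0.588 for 4932409I22Rik and 0.418 for Mamdc4. It reached 0.401 for Zfp692, 0.214 for Hmcn1 and 0.133 for Abcc4.

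Markers of other cell types gave few calls. Of 15 microglial genes 0 were called, with summed levels of 627 to 675 CPM on saline and 606 to 681 CPM on Htt ASO; Csf1r had medians of 141 and 136 CPM. Of 10 genes of activated microglia 0 were called, and Apoe, the most abundant, had medians of 920 and 787 CPM (adjusted p = 0.268). The 10 astrocyte genes (medians for Slc1a3 558 and 572 CPM, adjusted p = 0.878), 12 oligodendrocyte genes (Mbp 4770 and 4621 CPM, adjusted p = 0.7), 4 oligodendrocyte precursor genes, 8 striatal interneuron genes and 9 cortical excitatory neuron genes also had 0 called. Among 11 lymphocyte and neutrophil markers only Cd4 passed the filter on low counts. It lay at 95.7 to 123 CPM on saline and 106 to 122 CPM on Htt ASO and was not called (adjusted p = 0.771). Since no other marker of that list passed the filter, the level of Cd4 gives no reading on lymphocytes or neutrophils. One of 7 mural cell genes, the potassium channel subunit Abcc9, rose 1.19-fold from 20.1 to 24.4 CPM (adjusted p = 0.0314), and lost its call without GS4, GT3, GW4, HA4, HE3, HM3, HQ3 or HT4 (adjusted p up to 0.104). Abcc9 also lost it with lane as a covariate, with quality weights, in Htt+/+ mice fitted alone and in the lanes holding both treatments (up to 0.196).

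Red blood cell genes had higher medians on Htt ASO but did not pass the test. Summed over 3 tested genes their level ran from 43.5 to 127 CPM on saline and from 78.2 to 261 CPM on Htt ASO, with a median log2 fold change of 0.91, and 0 of the 3 were called. Hbb-b1 had medians of 35.5 and 64.3 CPM (log2 fold change 0.91, 95% confidence interval 0.10 to 1.72, adjusted p = 0.42), and Hba-a2 of 28.2 and 49.9 CPM (adjusted p = 0.447). Within lanes 3, 4 and 6, Hbb-b1 differed by 2.12, 2.43 and 0.02 on the log2 scale, Htt ASO minus saline, with 1 or 2 mice per treatment in each. In the same lanes Angpt2 differed by 1.14, 1.01 and 1.39, Icam1 by 0.93, 1.14 and 1.28, and Cdh5 by 0.64, 0.50 and 0.30. In lane 6, where Hbb-b1 was nearly level, Angpt2 and Icam1 differed more than in lanes 3 and 4 and Cdh5 less. Other vessel genes also went both ways. Emcn differed most in lane 6 (0.63, 0.56 and 0.71 in lanes 3, 4 and 6). Vwf (0.76, 0.92 and 0.49), Pecam1 (0.33, 0.31 and 0.03) and Cldn5 (0.73, 0.64 and −0.30) were lowest there. Whether changes in vessel genes follow blood content was not tested. Choroid plexus genes, 8 in number, summed to 63.9 to 110 CPM on saline and 45.1 to 116 CPM on Htt ASO with 0 called. Lists of 79 cytosolic ribosomal protein genes, 81 oxidative phosphorylation genes, 18 immediate early genes, 14 circadian clock genes, 13 cholesterol synthesis genes, 12 heat shock and chaperone genes, 12 glucocorticoid response genes and 9 RNase H and RNA decay genes had 0 called, with medians from −0.13 to 0.019.

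**Figure D4:**
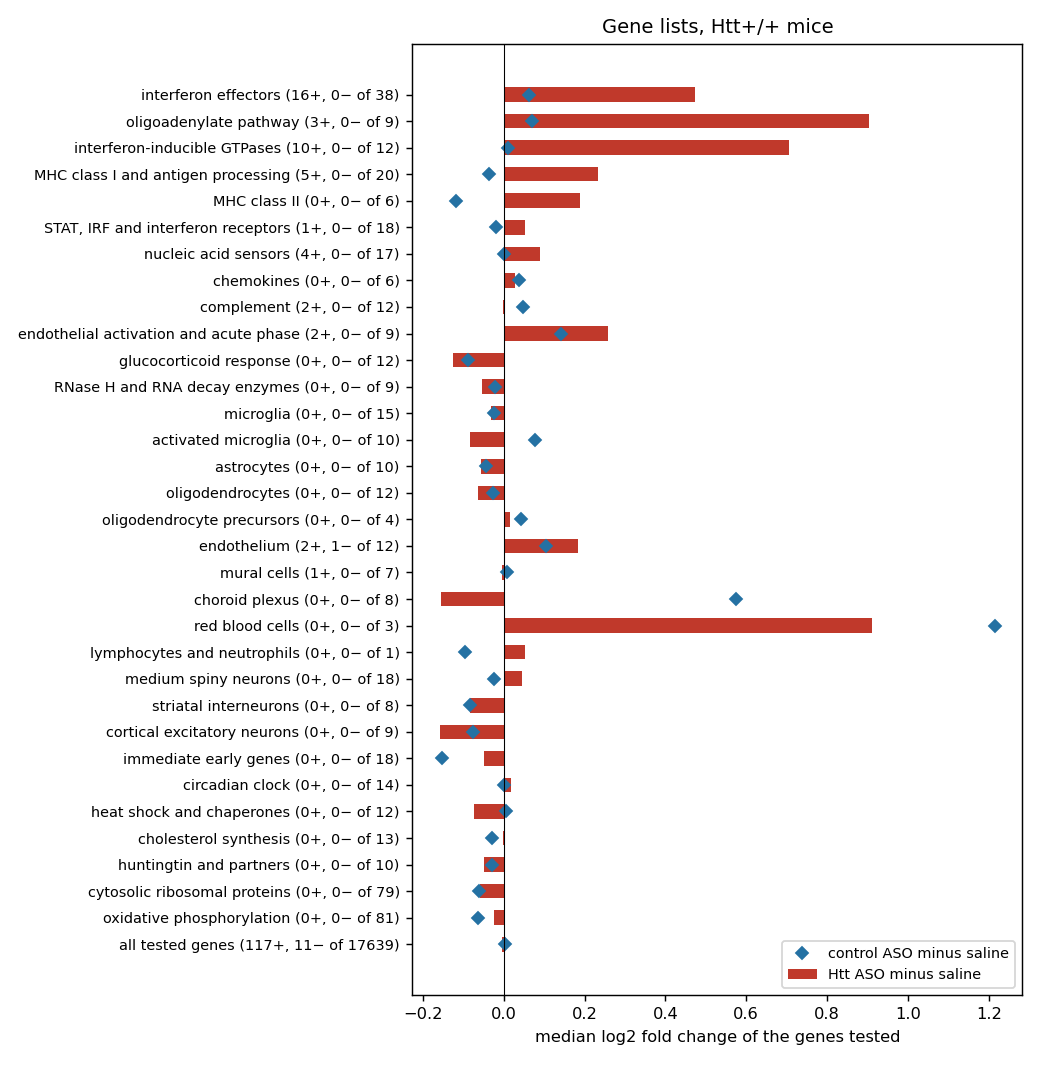
Median log2 fold change of the tested genes of each list in Htt+/+ mice (horizontal axis) for Htt ASO minus saline (bars) and control ASO minus saline (diamonds), which share the saline mice. Labels give how many genes were called higher and lower of how many tested for Htt ASO against saline; the longest bars with calls are those of the oligoadenylate pathway at 0.90 and of GTPases at 0.71, and the red blood cell bar at 0.91 has 0 calls.

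Sequencing lanes were shared unevenly, with Htt ASO mice in lanes 3, 4, 5 and 6 and saline mice in lanes 3, 4, 6 and 8. Within each of lanes 3, 4 and 6, which held both treatments, all 117 genes that rose were higher on Htt ASO, and 10 of the 11 that fell were lower in all 3, against 13.9% and 13.7% of all tested genes. These lanes hold 8 of the 12 mice in which the genes were called, so their direction there is largely set by that choice. Oas2 differed by 1.69, 2.64 and 1.62 on the log2 scale in these lanes, Cd93 by 1.39, 1.02 and 0.79, and Tek by −0.31, −0.55 and −0.68. A fit on the mice of these lanes alone, with lane as a term, called 44 genes, of which 40 were among the 128. Log2 fold changes fell with GC content across 14723 genes (Spearman's rho −0.42; genes share libraries and are not independent), and a correction for it, chosen after seeing the data, called 148 genes, 115 of them among the 128.

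Control ASO, compared with the same saline mice, gave 0 called genes in limma (2080 at an unadjusted p below 0.05, smallest adjusted p 0.26; DESeq2 called 7). For Oas2 its log2 fold change against saline was 0.07 (SE 0.24), for H2-K1 −0.02, for Irf7 −0.18 and for Slc40a1 0.13, with adjusted p in limma from 0.483 for Slc40a1 to 0.944 for H2-K1. Over the 39 interferon and antigen genes the median was 0.069 for control ASO minus saline and 0.83 for Htt ASO minus saline. Over the other 78 genes that rose, which include H2-Q8 and the Nlrc5 rows, the medians were 0.18 and 0.53. These genes were chosen against the same saline mice, so a value above 0 on control ASO is no evidence of a change. Tcf23, a transcription factor named after its values were seen, had medians of 0.459 CPM on saline, 1.05 CPM on control ASO and 1.18 CPM on Htt ASO. Its log2 fold change was 1.04 for control ASO (limma, adjusted p = 0.26) and 1.22 for Htt ASO (adjusted p = 0.00117). Thbd had a log2 fold change of 0.44 on control ASO and Ssh3 of −0.23, with adjusted p of 0.311 to 0.313 in limma, against 0.63 and −0.27 on Htt ASO. Control ASO mouse GV3 stood above the rest for Thbd (17.3 CPM, next 11.5).

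Set against control ASO instead of saline, the same Htt ASO mice had 48 genes higher (0.272%) and 4 lower (0.0227%). Of the 117 genes that rose against saline, 45 were also called higher here, and the median log2 fold change of the 117 was 0.49. Both contrasts share the Htt ASO mice. Over the 12 endothelial markers the median was 0.18 against saline, 0.064 against control ASO and 0.11 for control ASO minus saline. Oas2 (log2 fold change 1.94, adjusted p = 1.26e-07), H2-K1 (0.76, adjusted p = 1.26e-07), Irf7 (1.92, adjusted p = 2.28e-06), Icam1 (0.94, adjusted p = 0.000603) and Tek (−0.67, adjusted p = 0.000585) were among the calls. Ly6c1 (0.31, adjusted p = 0.132), Cdh5 (0.17, adjusted p = 0.926) and Thbd (0.19, adjusted p = 0.937) were not. Control ASO mouse GV3 had 21.6 CPM of Cd93 where the other 4 had 8.31 to 12.4, and 69.3 CPM of Ly6c1 where they had 42.5 to 46.5. For Hbb-b1 it had 234 CPM where they had 39 to 89.3. Without GV3 73 genes were called in place of 52, and without control ASO mouse HD4 34 were. The part of GV3 in the missing calls of Ly6c1, Cdh5 and Thbd was not tested.

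HttQ111/+ mice, none of which is shared with the groups above, received the same treatments. In them 86 genes rose on Htt ASO against saline (0.488%) and 12 fell (0.068%), and the groups did not overlap for 112 higher genes (0.635%). Of the 117 genes that rose in Htt+/+ mice, 64 also rose in HttQ111/+ mice, 54.7% of the first list and 74.4% of the second. In all 112 of the 117 had a log2 fold change above 0 there, against 47.0% of all tested genes. Of the 11 that fell, 8 were below 0 and 2 were called, Tek and Abcc4. No gene was called in opposite directions. The median log2 fold change of the 117 was 0.67 in Htt+/+ and 0.55 in HttQ111/+ mice, and that of the 39 interferon and antigen genes was 0.83 and 0.80, with 28 of them called in both. Over the other 78 higher genes, H2-Q8 and the Nlrc5 rows included, it was 0.53 and 0.39, with 36 called in both. Over the 11 lower genes it was −0.34 and −0.12. All these genes were chosen on the Htt+/+ values.

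In HttQ111/+ mice Oas2 had a median of 1.11 CPM on saline and 4.82 CPM on Htt ASO (log2 fold change 1.96, adjusted p = 4.18e-07), where it was 2.01 in Htt+/+ mice. Irf7 changed by 1.76 (adjusted p = 4.06e-06), Icam1 by 1.20 (adjusted p = 1.75e-05), Cd93 by 1.09 (adjusted p = 1.13e-05), Slc40a1 by 0.56 (adjusted p = 9.42e-06) and Tek by −0.58 (adjusted p = 0.00456) on this scale. The interaction of genotype with treatment, which tests the difference of the 2 contrasts, called 0 genes in limma, edgeR and DESeq2 (973 at an unadjusted p below 0.05 in limma, smallest adjusted p 0.572). Its smallest p among the 128 genes belonged to Xlr, named for that reason, at medians of 0.912 and 1.45 CPM in Htt+/+ mice and 1.12 and 1.09 CPM in HttQ111/+ mice (difference of log2 fold changes 0.72, adjusted p = 0.572). An absence of called interactions does not show that the genotypes responded alike.

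**Figure D5:**
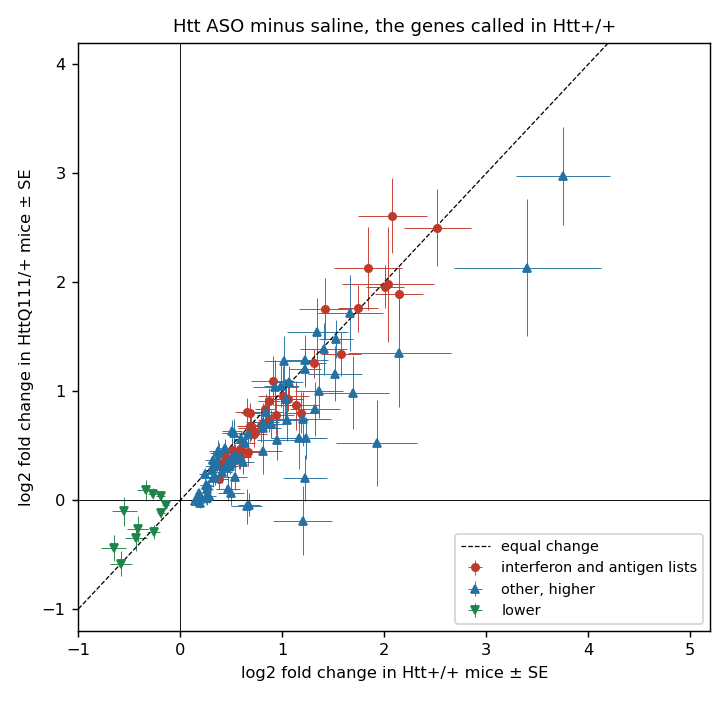
Log2 fold change, Htt ASO minus saline, of the 128 genes called in Htt+/+ mice, in those mice (horizontal axis) and in HttQ111/+ mice (vertical axis), each ± SE; the dashed line marks equal change. Of the 117 genes that rose in Htt+/+ mice 112 lie above 0 on the vertical axis; the genes were chosen on the horizontal values.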

How the data were processed

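Striatal mRNA of 35 mice was sequenced, 1 library per mouse; the 12 Htt+/+ mice on Htt ASO or saline are the subject here. The authors aligned paired reads to the mouse transcriptome (mm9) with Bowtie 0.12.9 and estimated gene abundance with RSEM 1.1.18, and the deposited values are these expected counts per gene, unscaled; RSEM divides reads that fit several genes, and 55.6% of values were whole. The label ASO1 was taken as Htt ASO. Of 22099 genes, 17639 passed filterByExpr (minimum count 10, minimum total 15) and were fitted with voom and limma 3.58.1 in R 4.3.3, the test named in the study's methods, with TMM scaling from edgeR 4.0.16, a mean for each of 6 groups and 29 residual degrees of freedom; p-values were adjusted by Benjamini-Hochberg over all tested genes (threshold 0.05, two-sided). P-values measure the spread between mice, 1 library each.

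The fit was repeated with DESeq2 1.42.0 and with edgeR's quasi-likelihood test, on rounded counts, without TMM, with other filters, with lane, quality weights or robust empirical Bayes, on fewer groups, and without each mouse. The code was tested on simulated data. Named genes were the target, the 12 called genes of smallest adjusted p and 5 of largest change each way, up to 5 called members of each list and 2 markers of each cell type. Others are marked as named after their values were seen, and some genes are not reported here. Members and lists were chosen with earlier results of these data known. Symbols and promoters came from RefSeq; the columns of all mice were used.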

Additional observations from a re-analysis of the deposited data

Results flagged for a closer look

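For 97 genes, those named in the report and further markers of each cell type, the highest and lowest mouse of each Htt+/+ treatment group were compared with the rest of the group by Dixon's gap at its 95% critical value; 30 flags arose in 291 combinations of gene and group, and about 1 group in 20 is flagged by chance. Among Htt ASO mice, GW4 was highest for Oas2 (7.75 CPM, next 5.79), Lgals9 (8.22 CPM), Pecam1 (31.9 CPM, next 29.4), Vwf (57.8 CPM, next 45.8) and Abcc4 (21.5 CPM) and lowest for Clic6 (21.0 CPM). HD3, whose sample was the left hemistriatum, was highest for Lcn2 (2.89 CPM, next 1.31) and Itm2a (68.3 CPM), and HA4 was lowest for 4932409I22Rik (4.85 CPM).

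Among saline mice, GV4 was highest for 3 interferon-responsive genes, Irf7 (4.29 CPM, next 2.29), B2m (88.7 CPM, next 69.1) and Zbp1 (0.417 CPM, next 0.174), in the direction of the Htt ASO mice. HQ3 was lowest for Gvin1 (12.3 CPM), HE3 highest for Slc1a3 (603 CPM) and HT4 highest for Pdgfra (65.3 CPM).

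Control ASO mouse GV3 was highest for Ly6a (54.2 CPM, next 28.7), Ly6c1 (69.3 CPM), Cdh5 (23.9 CPM), Flt1 (118 CPM), Pecam1 (40.0 CPM, next 26.9), Vwf (101 CPM, next 33.8), Thbd (17.3 CPM), Slc38a5 (5.29 CPM), Lcn2 (2.46 CPM, next 0.317), Xlr (1.59 CPM), Hbb-b1 (234 CPM) and Hba-a2 (186 CPM), so vessel, acute phase and blood transcripts stood apart together in this 1 animal. GU4 was highest for the choroid plexus transcripts Ttr (1457 CPM, next 34.1) and Clic6 (47.2 CPM), and HD4 for Cd4 (118 CPM). GV3, GU4 and HD4 are in neither group of the comparison of Htt ASO with saline. They bear on it only through steps that used all mice: the filter on low counts, TMM scaling and the shared estimate of the spread.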

How the results depend on the processing

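The count of 128 genes stayed within 90 to 148 under the alternatives except 1: mice of the lanes holding both treatments, with lane as a covariate, gave 44, with 8 of the 12 mice fitted. EdgeR called 126 and DESeq2 147, sharing 122 and 126 genes with limma. Leaving out each mouse gave 101 to 125. Of 61 named genes that were called, none reversed, 29 kept the call throughout and 15 lost it only in the shared lanes. The 15 were 2310016F22Rik, AK220210, Cfb, Ifi203, Ifi47, Ifih1, Igtp, Il2rg, Lgals9, Megf6, Serpina3g, Serpinb6b, Slfn2, Tcf23 and Xlr. Their adjusted p there ran from 0.0644 for Lgals9 to 0.281 for Xlr (limma). Of 35 uncalled genes followed the same way, 2 were called elsewhere, Tap1 and Vwf. Control ASO against saline went from 0 to 7 with DESeq2. HttQ111/+ mice had 98 genes, 152 with DESeq2 and 63 to 106 on leaving out each mouse (63 without saline replicate 3). Htt ASO against control ASO had 52, 27 with only the groups compared, and 34 to 73 on leaving out each mouse. The causes were not tested. No paired analysis was possible because replicate numbers only follow the order of samples and pair no mice. Genes of low count carry wide errors: Lcn2 has an interval of 1.94 to 4.87.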
